A study of Mus musculus with 37 samples.

Results

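The jejunal lymph node was compared with the iliac lymph node in RNA bound to tagged ribosomes, using 3 jejunal and 3 iliac libraries of the 37 in the series. The members were taken by site name alone: jejunal 1 to 3 on one side and iliac 1 to 3 on the other. RiboTag mice express an Rpl22 protein with a haemagglutinin (HA) tag once Cre has acted, so an antibody to HA recovers ribosomes and the mRNA bound to them. Jejunal and iliac libraries share one genotype, CD169 Cre KI/KI with homozygous Rpl22HA, so no library of either site lacks the Cre or the tag. The Cre sits in the CD169 locus, which encodes the sialic acid receptor Siglec1, and the labels call the material cd169 macrophages, although the design text speaks of activation in all tissues. The labels used here give neither the age nor the sex of these mice, nor whether the 3 libraries of a site came from separate animals or from pooled nodes. The p-values below therefore measure the spread between libraries, which may be technical. A library made from jejunal node with an isotype control antibody entered no test, and its values stand beside the results where they bear on them. Ileal and inguinal libraries, 3 of each, served as another pair of a gut-draining and a peripheral node that shares no library with the first.

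Jejunal nodes belong to the mesenteric chain and receive lymph from the small intestine, with its dietary fat and microbial products. Iliac nodes lie along the pelvic vessels and receive lymph from the pelvis and hind limb. Macrophages that line the sinuses of such nodes take up particles, lipoproteins and dying cells from lymph, using scavenger receptors and complement, and digest them in lysosomes.

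The 6 libraries were shallow. Totals were 495246, 1950752 and 256282 estimated counts in jejunal 1, 2 and 3, and 347806, 630803 and 882534 in iliac 1, 2 and 3. The depths of the 2 sites overlapped but were not matched, since jejunal 2 held more counts and jejunal 3 fewer than any iliac library. Genes with 10 or more counts numbered 2548, 7267 and 1294 in the jejunal libraries against 1708, 2938 and 2971 in the iliac ones. Gm19220, Rn18s-rs5 and Lars2, whose annotated features carry ribosomal sequence, held 46.7%, 15.5% and 60.3% of the counts in jejunal 1, 2 and 3, against 59.1%, 39.0% and 52.3% in iliac 1, 2 and 3. In the isotype library, of 5002926 counts, they held 6.5%. Levels are given as CPM, counts scaled by a library's total over the genes tested and a TMM factor (edgeR's trimmed mean of M values). On that scale 3 counts corresponded to 5.98, 0.991 and 13.9 CPM in jejunal 1, 2 and 3. In iliac 1, 2 and 3 they corresponded to 12.3, 4.57 and 4.91 CPM. A gene at 0 in jejunal 3 may thus still have been present at the level of a low gene elsewhere. Such floors take in counting error alone, because copies made by PCR are not independent.

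Jejunal 3 stood apart from the other jejunal libraries. Over the genes tested, the Pearson correlation of log2 CPM was 0.855 between jejunal 1 and 2, but 0.489 between jejunal 1 and 3 and 0.322 between jejunal 2 and 3. Jejunal 1 and 2 correlated with iliac 2 at 0.863 and 0.828, while jejunal 3 was closer to iliac 1 (0.747) and iliac 3 (0.725). Iliac 1 and iliac 3 correlated at 0.771, and iliac 2 and iliac 3 at 0.763. The nearest library was of the same site for jejunal 2, iliac 1 and iliac 3, and of the other site for jejunal 1, jejunal 3 and iliac 2. These are correlations across genes, which are not independent replicates. Medians of lists with 2 or more genes tested are therefore given also without jejunal 3 or without libraries that moved them. Ranges and extremes of list medians are over fits that left out 1 library, unless another fit is named. More genes passed the count filter in some of those fits, so a list's members vary between them.

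**Figure D1:**
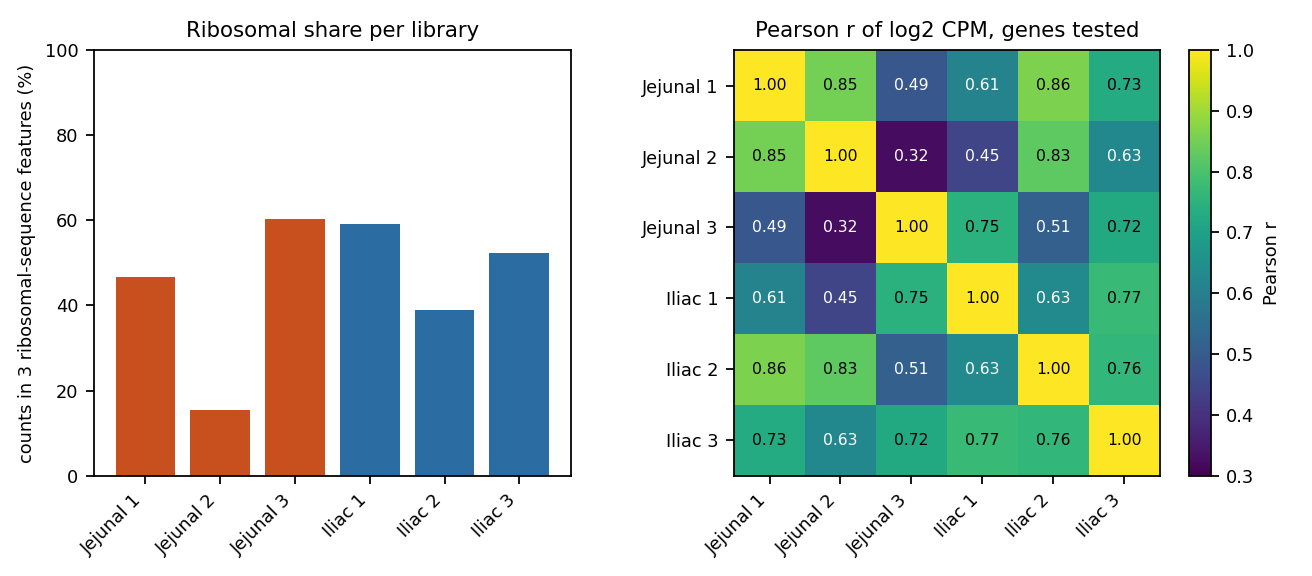
The left panel shows, for each of the 6 libraries, the percent of counts in 3 features that carry ribosomal sequence, and the right panel the Pearson correlation of log2 CPM over the 2517 genes tested. Jejunal 3 has the highest ribosomal share (60.3%) and correlates with jejunal 2 at 0.32, whereas jejunal 1 correlates with iliac 2 at 0.86.

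No gene passed the test between the sites. Of the 56351 genes in the table, 2517 had enough counts, and 0 of them (0%) had an adjusted p under 0.05 in edgeR's quasi-likelihood test with Benjamini-Hochberg adjustment. The smallest adjusted p was 0.999. At an unadjusted p under 0.05, 35 genes (1.39%) stood out, 20 with a higher jejunal level (0.795%) and 15 with a lower one (0.596%). DESeq2 likewise called 0 genes, with 48 at an unadjusted p under 0.05. The 3 jejunal and 3 iliac libraries did not overlap in 169 genes (6.71%), of which 63 were higher (2.5%) and 106 lower (4.21%) in jejunal node. Every fold change of these sites is jejunal over iliac, and over all genes tested its log2 median was 0.0018. The median standard error was 0.87 on the log2 scale. In this fit the smallest absolute log2 fold change that reached an unadjusted p under 0.05 was 1.65. That is an observed value, and no limit of detection was computed. Smaller differences may have been missed at this depth and spread. The ileal and inguinal libraries, tested in the same way, gave 2162 of 18126 genes past the threshold (11.9%), 1018 higher (5.62%) and 1144 lower (6.31%) in ileal node. With upper-quartile scaling that split was 805 higher and 1397 lower. The count rests on single libraries: it was 730 without ileal 1, 346 without ileal 2, 916 without inguinal 1, 320 without inguinal 2 and 5997 without inguinal 3. Without jejunal 3, 0 of 3490 genes passed (0%), 421 had an unadjusted p under 0.05 (12.1%, against 1.39% with it), and the smallest adjusted p was 0.0890. Without iliac 2 the count at an unadjusted p under 0.05 was 119 of 2785 genes, again with 0 calls.

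Receptors that define macrophages were barely detected. Siglec1 had 0 counts in the 3 jejunal libraries, and 0, 0 and 3 counts in iliac 1, 2 and 3. Since both alleles of its locus carry the Cre, its level cannot check the cell type, and it was also low in the deeper ileal libraries, at 0.469 CPM on average. Rpl22, whose tagged copy is the bait, had 21.9, 31.4 and 0 CPM in jejunal node and 20.5, 19.8 and 31.1 CPM in iliac node, with overlapping values. Adgre1, which encodes F4/80, had 0, 18 and 1 counts in jejunal against 3, 0 and 0 counts in iliac libraries, and Cd68, a lysosomal glycoprotein of macrophages, had 1, 0 and 1 counts against 0, 0 and 1. All 3 receptor genes fell below the count filter.

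Marco, a scavenger receptor of sinus macrophages, was by contrast abundant. It had 2880, 2679 and 116 CPM in jejunal 1, 2 and 3, against 213, 733 and 124 CPM in iliac 1, 2 and 3. Jejunal 1 and 2 lay above every iliac library and jejunal 3 below every one. The log2 fold change was 2.40 (SE 1.04, 95% interval 0.17 to 4.64, unadjusted p = 0.0367 in edgeR), and it did not pass after adjustment. Without jejunal 3 it was 2.94, with an adjusted p of 0.191 in edgeR. In the deeper pair Marco averaged 6857 ± 704 CPM in ileal node and 1102 ± 213 CPM in inguinal node (SD, n = 3 each; edgeR adjusted p = 0.000185). In bulk RNA, fewer cells of a type and less RNA per cell cannot be told apart.

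Maf, a transcription factor that maintains resident macrophages, followed the same order. It had 688, 698 and 74.4 CPM in jejunal node against 65.6, 218 and 98.1 CPM in iliac node, a log2 fold change of 1.93 (95% interval 0.02 to 3.84). The integrin Itgam had 35.9, 12.9 and 9.30 CPM in jejunal against 61.5, 35 and 32.7 CPM in iliac libraries. Csf1r, which binds the growth factor CSF1, had 3, 30 and 0 counts in jejunal and 8, 18 and 10 counts in iliac node, or 5.98, 9.91 and 0 CPM against 32.8, 27.4 and 16.4 CPM. Cd5l, a protein secreted by resident macrophages, had 7, 38 and 1 counts in jejunal and 1 count in each iliac library. Only 3 of the 20 sinus and resident macrophage genes passed the count filter, 2 with a positive and 1 with a negative fold change, and their median log2 fold change was 1.93 against 0.0018 for all genes. Without jejunal 3 the median was 1.54 over 5 genes, 3 of them positive. It turned on single libraries, being -0.12 without jejunal 1 and 0.46 without jejunal 2, over 4 genes each, of which 2 were positive. Summed over all 20 genes the level was 3687, 3473 and 237 CPM in jejunal 1, 2 and 3 and 419, 1050 and 321 CPM in iliac 1, 2 and 3, most of it Marco and Maf. In the jejunal libraries the sum averaged 3106 CPM on plain library totals, against 172 CPM in the 1 isotype library. That average rests on jejunal 1 and 2, since the counts of the list were 1849, 10510 and 51 in jejunal 1, 2 and 3.

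Complement genes were above the iliac level in jejunal 1 and 2 and low in jejunal 3. C1qa encodes a chain of C1q, which opsonises particles for uptake, and had 305, 291 and 37.2 CPM in jejunal node against 53.3, 51.7 and 27.8 CPM in iliac node. The log2 fold change was 2.27 (SE 0.86, 95% interval 0.43 to 4.12, unadjusted p = 0.0193 in edgeR). C4b, which encodes the classical-pathway component C4, had 75.8, 94.2 and 13.9 CPM against 4.10, 24.3 and 4.91 CPM, a log2 fold change of 2.40 (95% interval 0.30 to 4.5, unadjusted p = 0.0277 in edgeR). C3, the component on which all pathways converge, had 134, 282 and 37.2 CPM in jejunal and 90.3, 80.7 and 50.7 CPM in iliac libraries, a log2 fold change of 1.06. Properdin (Cfp) and factor B (Cfb), which drive the alternative pathway, each had 0 counts in jejunal 3 and overlapped between sites. All 5 complement genes tested of 14 had a positive fold change, with a median of 1.2. An unadjusted p under 0.05 was reached by 2 of the 5, where 0.795% of all genes did so with a higher jejunal level. In each of the 5, jejunal 1 and 2 lay above every iliac library and jejunal 3 did not. Without that library 6 of 6 complement genes tested lay above every iliac library, where 19.3% of all genes did. For the 5 genes this follows from the order just given, so it is no further support. The median log2 fold change of the 6 was 1.79. All 6 then had an unadjusted p under 0.05, where 6.25% of all genes did with a higher jejunal level and 5.82% with a lower one. Jejunal 3 was singled out after it was seen to stand apart, so these p-values are no further support either. Without jejunal 3 C1qa had a log2 fold change of 2.76 and an adjusted p of 0.143 in edgeR, so the list still held 0 calls. Among the 6 fits that left out a library the median was lowest without jejunal 2, at 0.87, and all members tested were positive in each. With the replicate number as a block the median was 0.79.

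Lysosomal genes showed the same order at smaller sizes. Psap, the precursor of the saposins that help degrade sphingolipids, had 1073, 967 and 149 CPM in jejunal node against 312, 254 and 255 CPM in iliac node, a log2 fold change of 1.42 (95% interval -0.30 to 3.14). The cathepsins Ctsb and Ctsd, proteases of the lysosome, had 193, 142 and 18.6 CPM and 181, 154 and 13.9 CPM in jejunal libraries. In iliac libraries Ctsb had 53.3, 76.1 and 32.7 CPM and Ctsd 49.2, 114 and 36 CPM. Ctsz, a carboxypeptidase, was the 1 lysosomal gene whose sites did not overlap, with 37.9, 50.9 and 32.5 CPM in jejunal against 8.21, 15.2 and 22.9 CPM in iliac node (log2 fold change 1.35, 95% interval -0.38 to 3.08). Of all genes, 2.5% were higher in jejunal node without overlap. All 11 lysosomal genes tested of 21 had a positive fold change, with a median of 0.82, and 0 had an unadjusted p under 0.05. Without jejunal 3, 15 of 15 were positive, and 9 lay above every iliac library, against 19.3% of all genes. Since jejunal 3 was low in Psap, Ctsb and Ctsd, leaving it out favours that order and is no further support. The median lay between 0.40 without jejunal 1, with 11 of 13 members positive, and 1.08 without iliac 2, with 10 of 12.

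Genes of lipid and iron handling were split. Nr1h3, the oxysterol receptor LXR alpha, had 140, 86.9 and 18.6 CPM in jejunal node and 4.10, 36.5 and 13.1 CPM in iliac node (log2 fold change 2.13, 95% interval 0.05 to 4.21). Plin2, which coats lipid droplets, had 49.9, 54.9 and 41.8 CPM in jejunal libraries, all above the 20.5, 19.8 and 16.4 CPM of the iliac ones (log2 fold change 1.38, 95% interval -0.27 to 3.03). Lpl, the lipase that frees fatty acids from lipoproteins, went the other way, with 933, 456 and 69.7 CPM in jejunal node, all below the 1268, 2155 and 1694 CPM of iliac node (log2 fold change -1.81, 95% interval -3.66 to 0.04). On plain library totals the isotype library held 987 CPM of Lpl against a jejunal mean of 570 CPM. Lpl was thus on average no higher in the jejunal pull-down than in that 1 library. The iliac libraries were not set beside it on that scale. Apoe, which carries cholesterol, had 124, 230 and 93.0 CPM against 90.3, 123 and 149 CPM, and the ferritin chain Ftl1 had 67.8, 94.8 and 60.4 CPM against 53.3, 73.0 and 88.3 CPM. Of 7 members tested of 16, 6 had a positive fold change, with a median of 0.86. That direction rests on jejunal 2, without which 2 of 6 members were positive and the median was -0.09, and with the ribosomal share as a covariate it was -0.05. Without jejunal 3 the median was 0.52, with 6 of 9 positive, and the ferritin heavy chain Fth1 and the iron carrier Trf joined Lpl below every iliac library. The highest median was 1.43, without iliac 2.

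**Figure D2:**
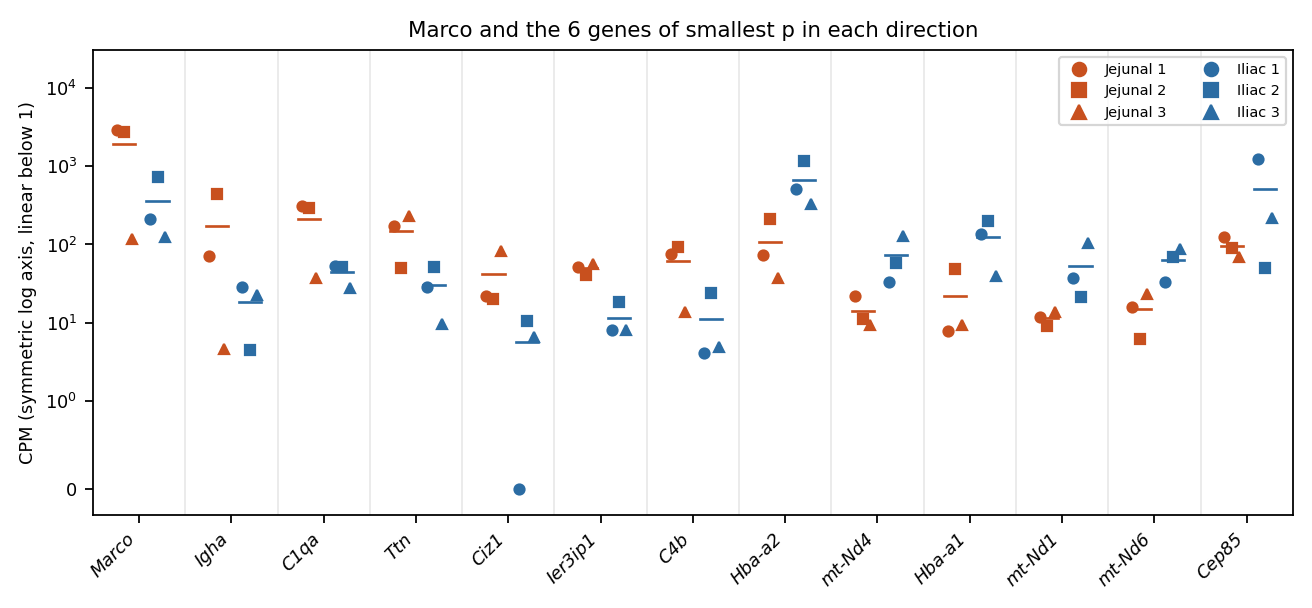
Each point is the level of a gene in CPM in one library, on a symmetric log axis that is linear below 1 CPM, with jejunal libraries in orange left of iliac libraries in blue and horizontal lines at the site means (n = 3). Marco and C1qa are high in jejunal 1 and 2 and low in jejunal 3, whereas Hba-a2 and mt-Nd4 are lower in every jejunal than in every iliac library.

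Dendritic cell genes were higher in jejunal node in most fits, and MHC class II genes had no steady direction. Cst3, which encodes the protease inhibitor cystatin C, had 51.8, 87.6 and 27.9 CPM in jejunal node, all above the 8.21, 18.3 and 21.3 CPM of iliac node (log2 fold change 1.79, 95% interval 0.00 to 3.57). Siglech, a receptor of plasmacytoid dendritic cells, had 89.7, 65.4 and 74.4 CPM in jejunal and 16.4, 24.3 and 42.5 CPM in iliac libraries, which also did not overlap (log2 fold change 1.43, 95% interval -0.27 to 3.13). On plain totals the isotype library held 85.1 CPM of Siglech and 3 CPM of Cst3, against jejunal means of 84.9 and 70.6 CPM. All 4 dendritic cell genes tested of 16 had a positive fold change, with a median of 1.61. Cst3 and Siglech were the 2 without overlap, where 2.5% of all genes were higher in jejunal node without overlap. Without jejunal 3, 6 of 6 were positive, with a median of 1.11, and the median reached 1.63 without iliac 3. The whole list summed to 327, 495 and 228 CPM in jejunal against 148, 143 and 144 CPM in iliac libraries. MHC class II genes, which serve antigen display to T cells, had 2 of 6 positive fold changes and a median of -0.52. Without jejunal 3, 4 of 8 were positive with a median of 0.0015, and without iliac 3, 5 of 8 with a median of 0.25, while without jejunal 1 the median was -0.57. Among them Cd74, the invariant chain, had 31.9, 50.6 and 107 CPM in jejunal node and 107, 62.4 and 157 CPM in iliac node. H2-Ab1, a class II beta chain, had 41.9, 88.6 and 46.5 CPM against 61.5, 45.7 and 67.0 CPM.

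Chemokine and interferon genes gave few measurable members. Cxcl9, an interferon-induced ligand for T cells, had 309, 273 and 4.65 CPM in jejunal node and 36.9, 108 and 39.2 CPM in iliac node (log2 fold change 1.67, 95% interval -0.51 to 3.85). The T zone chemokine Ccl19 had 213, 413 and 13.9 CPM against 32.8, 233 and 32.7 CPM, and Cxcl12, a stromal chemokine, had 35.9, 30.7 and 74.4 CPM against 65.6, 97.4 and 45.8 CPM. Only 3 of 25 chemokine genes could be tested, with a median of 1.10. It was 1.61 without jejunal 3, 0.19 without jejunal 2 and 2.28 without iliac 2, so single libraries set its size. Of 22 interferon response genes 4 could be tested, all with a positive fold change and a median of 0.57, which was 0.51 without jejunal 3 and lay between 0.31 without iliac 2 and 0.76 without iliac 1. Among the interferon genes Bst2, which tethers virions to cells, had 108, 250 and 4.65 CPM in jejunal and 41.0, 50.2 and 13.1 CPM in iliac libraries. Of 19 immediate early genes 3 were tested, with a median of 0.36, which was 0.68 without jejunal 3 and -0.04 without jejunal 1.

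Igha, the constant region of IgA heavy chains, is the product of plasma cells that serve mucosal surfaces. It had 36, 1329 and 1 counts in jejunal 1, 2 and 3, against 7, 3 and 14 counts in iliac 1, 2 and 3, or 71.8, 439 and 4.65 CPM against 28.7, 4.57 and 22.9 CPM. Jejunal 3 again lay among the iliac libraries. The log2 fold change of 3.27 (SE 1.21, 95% interval 0.69 to 5.86, unadjusted p = 0.0167 in edgeR) rests on jejunal 2, without which the gene fell below the filter, and was 1.11 with the ribosomal share as a covariate. In the deeper pair Igha averaged 1848 ± 319 CPM in ileal node and 6.80 ± 2.53 CPM in inguinal node (SD, n = 3 each; edgeR adjusted p = 4.56e-07). On plain totals the isotype library held 1.2 CPM, against a jejunal mean of 253 CPM to which jejunal 2 gave most. Other immunoglobulin genes did not share one order. Ighg3 had 14.0, 81.0 and 18.6 CPM in jejunal against 8.21, 6.09 and 26.2 CPM in iliac libraries. Jchain, which joins IgA and IgM chains, had 3, 101 and 1 counts against 5, 3 and 1, jejunal 2 being the deepest library. Igkc, a light chain constant region, had 14.0, 21.8 and 13.9 CPM against 16.4, 4.57 and 45.8 CPM, highest in iliac 3. Ighm, the IgM heavy chain, had 12, 28.1 and 37.2 CPM in jejunal and 36.9, 12.2 and 39.2 CPM in iliac node. It and Igha were the 2 members tested of 18. Without jejunal 3, 3 of 5 members were positive, and Igha had a log2 fold change of 3.85 (edgeR adjusted p = 0.101). The median was 1.54 over the 2 members, 1.76 without jejunal 3 and -0.60 without iliac 2.

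Of the B cell, T cell and innate lymphoid genes tested, all but Gata3 overlapped between sites. That was 0 of 7, 0 of 4 and 1 of 2 genes without overlap, against 6.71% of all genes. A single such gene is not read as a trait of these lists. Bank1, a B cell adaptor, had 784, 844 and 1255 CPM in jejunal node and 952, 986 and 2028 CPM in iliac node. Pax5, the B cell identity factor, had 305, 351 and 177 CPM against 111, 318 and 525 CPM. The isotype library held 3426 CPM of Bank1 and 2247 CPM of Pax5, above the jejunal means of 1052 and 334 CPM on plain totals. Of 16 B cell genes 7 were tested, 2 with a positive and 5 with a negative fold change (median -0.20). Without jejunal 3 the median was -0.09, with 3 of 8 positive, and without iliac 3 it was 0.26, with 7 of 9 positive, so the direction rests on iliac 3. Of 18 T cell genes 4 were tested, 3 with a positive fold change and a median of 0.34, which was 0.53 without jejunal 3 and -0.08 without iliac 2. Gata3, a factor of T helper and innate lymphoid cells, had 21.9, 14.2 and 4.65 CPM in jejunal and 28.7, 25.9 and 70.3 CPM in iliac libraries (log2 fold change -1.55, 95% interval -3.40 to 0.31). On plain totals the isotype library held 50.2 CPM of Gata3, against a jejunal mean of 16.0 CPM. Of 16 germinal centre and cell cycle genes 4 were tested, with a median of 0.18, which was 0.72 without jejunal 3 and -0.37 without jejunal 2. Among the 4, Tubb5 lay below every iliac library, where 4.21% of all genes did. Of 14 natural killer and innate lymphoid genes 2 were tested, with a median of -0.86, which was -0.60 without jejunal 3 and -1.29 without jejunal 1.

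Endothelial, stromal and positional genes mostly fell below the filter. Itga2b, an integrin chain best known from platelets, was the 1 lymphatic endothelium gene tested of 15, with 57.8, 66.1 and 0 CPM in jejunal node and 0, 21.3 and 3.27 CPM in iliac node (log2 fold change 2.23, 95% interval -0.33 to 4.79). Stab1, a scavenger receptor of sinusoidal and lymphatic endothelium and of macrophages, had 8, 238 and 0 counts in jejunal and 0 counts in every iliac library. Prox1, the lymphatic identity factor, had 15, 109 and 0 counts in jejunal against 2, 2 and 6 in iliac libraries, and the tight junction gene Cldn5 had 13, 105 and 0 against 0, 2 and 1. For these genes jejunal 1 and 2 exceeded every iliac library, and with jejunal 3 at 0 none reached the required level in 3 libraries. Summed over the list, the level was 148, 275 and 27.9 CPM in jejunal and 53.3, 54.8 and 58.9 CPM in iliac node. Without jejunal 3, 5 genes of the list could be tested. Stab1, Prox1, Cldn5 and Itga2b lay above every iliac library, where 19.3% of all genes did. That order follows from leaving out the jejunal library in which they were at 0, so it is no further support. Stab1, with the smallest adjusted p of all genes in edgeR in that fit, missed the threshold at 0.0890. Pecam1, of all endothelium, had 199, 69.7 and 218 CPM in jejunal and 410, 213 and 244 CPM in iliac node, and was the 1 gene tested of 16 on the blood endothelium list.

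Nkx2-3, a homeobox gene needed for spleen and gut lymphoid tissue, had 8, 28 and 0 counts in jejunal libraries and 1, 0 and 0 counts in iliac libraries. In a fit over all 36 pull-down libraries, where it could be tested, its log2 fold change was 4.25 with an adjusted p of 0.306 in edgeR. Hoxc8, a positional factor of the trunk, had 75.8, 59.8 and 13.9 CPM in jejunal node, all below the 78.0, 116 and 86.7 CPM of iliac node. The gap between jejunal 1 and iliac 1 was small. On plain totals the isotype library held 67.4 CPM, against a jejunal mean of 60.4 CPM. Hoxb4 had 110, 81.0 and 349 CPM in jejunal and 258, 92.8 and 175 CPM in iliac libraries. Only these 2 of 31 homeobox and positional genes could be tested, with a median of -0.42, which was -0.78 over 3 genes without jejunal 3, -0.22 without jejunal 2 and -1.16 without jejunal 1. Of 20 reticular stroma and fibroblast genes 5 were tested, with a median of -0.16 that was 0.26 without jejunal 3 and -0.27 without iliac 1. Among them was the proteoglycan Dcn, with 37.9, 58.5 and 18.6 CPM in jejunal and 8.21, 27.4 and 16.4 CPM in iliac node.

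Among the lists, the mitochondrially encoded genes had the most members without overlap between sites. The mitochondrial genome encodes core subunits of the respiratory chain and its own ribosomal RNAs, which are not translated on the cytosolic ribosomes that carry the tag. The level of mt-Nd4, a subunit of complex I, was 21.9, 11.2 and 9.30 CPM in jejunal 1, 2 and 3, against 32.8, 57.8 and 128 CPM in iliac 1, 2 and 3. Its log2 fold change was -2.35 (SE 0.88, 95% interval -4.23 to -0.47, unadjusted p = 0.0180 in edgeR). The complex I gene mt-Nd1 had 12, 9.25 and 13.9 CPM against 36.9, 21.3 and 103 CPM (log2 fold change -2.25), and mt-Nd6 had 16.0, 6.28 and 23.2 CPM against 32.8, 68.5 and 88.3 CPM (log2 fold change -2.19). In all 3 genes every jejunal library lay below every iliac one, but on few counts. The counts of mt-Nd4 were 11, 34 and 2 in jejunal against 8, 38 and 78 in iliac libraries. They were 6, 28 and 3 against 9, 14 and 63 for mt-Nd1, and 8, 19 and 5 against 8, 45 and 54 for mt-Nd6.

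The cytochrome oxidase gene mt-Co3 had 14.0, 23.5 and 55.8 CPM in jejunal and 115, 68.5 and 172 CPM in iliac node (log2 fold change -1.99), and mt-Cytb, of complex III, had 3.99, 4.30 and 23.2 CPM against 41.0, 28.9 and 55.6 CPM (log2 fold change -2.27). All 11 members tested of 15 had a negative fold change, with a median of -1.99 against 0.0018 for all genes. Of the 11, 7 did not overlap between sites and were lower in jejunal node, where 4.21% of all genes did so. An unadjusted p under 0.05 was reached by 6, where 0.596% of all genes did so with a lower jejunal level. Again 0 passed after adjustment. Leaving out 1 library at a time, the median of the list lay between -2.41 without jejunal 3 and -1.32 without iliac 3, and it was -1.75 with the ribosomal share as a covariate. Without jejunal 3, 10 of the 11 lay below every iliac library, against 16.6% of all genes. Both mitochondrial ribosomal RNAs, high in jejunal 3, were among the 10 only through its removal. 1 member was positive without jejunal 1, without jejunal 2 and without iliac 3.

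Both mitochondrial ribosomal RNAs behaved differently in jejunal 3. The large one, mt-Rnr2, had 73.8, 133 and 1506 CPM in jejunal 1, 2 and 3 against 1444, 1234 and 1308 CPM in iliac 1, 2 and 3, and the small one, mt-Rnr1, had 27.9, 36.3 and 451 CPM against 201, 198 and 217 CPM. Jejunal 3 lay above all iliac libraries, and the other jejunal libraries far below them. Without jejunal 3 the log2 fold change of mt-Rnr2 was -3.68 (edgeR adjusted p = 0.101), against -1.23 with it. On plain totals mt-Rnr2 averaged 515 CPM in jejunal libraries against 186 CPM in the isotype library, and mt-Rnr1 154 against 37.6 CPM, averages to which jejunal 3 gave most. For mt-Nd4 the order was the other way, with a jejunal mean of 15.8 CPM and 106 CPM in the isotype library. So it was for mt-Nd1 (12.7 against 78.3 CPM), mt-Nd6 (15.1 against 50.8 CPM) and mt-Co3 (32.4 against 120 CPM). Summed over the list, with the ribosomal RNAs, the jejunal mean was 839 CPM and the isotype library held 942 CPM. In the deeper pair mt-Nd4 averaged 96.1 ± 136 CPM in ileal node and 74.0 ± 58.3 CPM in inguinal node (SD, n = 3 each; edgeR adjusted p = 0.883).

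**Figure D3:**
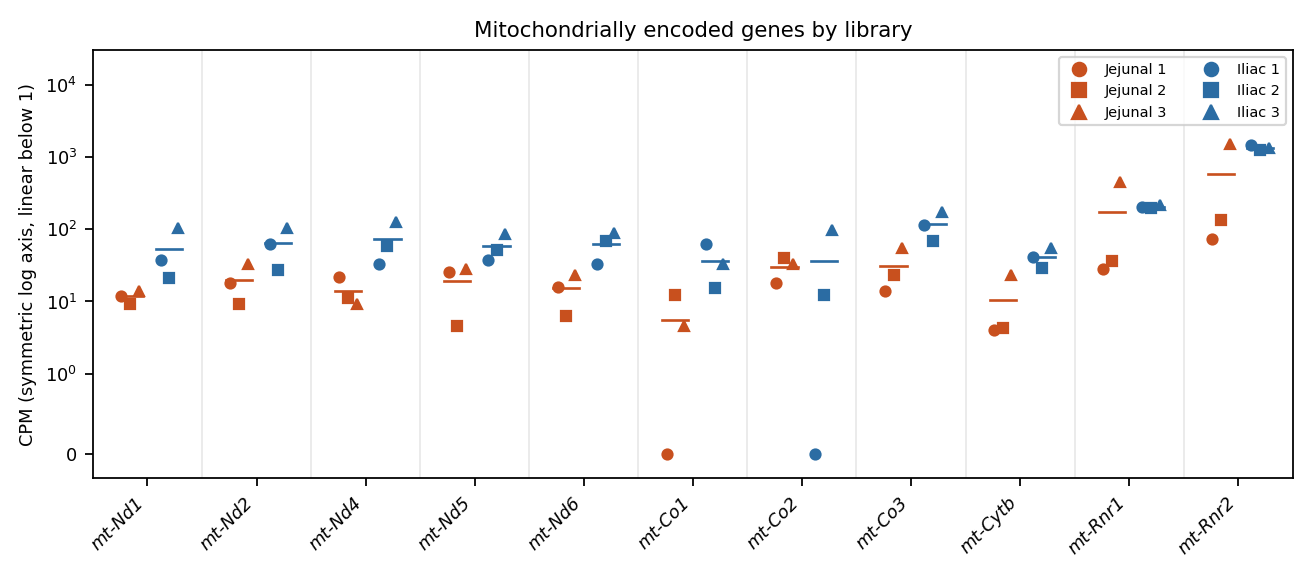
Levels of the 11 mitochondrially encoded genes tested, in CPM on a symmetric log axis that is linear below 1 CPM, with jejunal libraries in orange left of iliac libraries in blue and lines at the site means (n = 3). In 7 of the 11 genes every jejunal library lies below every iliac library, and in mt-Rnr1 and mt-Rnr2 jejunal 3 lies above the iliac libraries.

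Hba-a2, an alpha-globin gene of red cells, had the smallest unadjusted p of any gene in the lists. It had 73.8, 209 and 37.2 CPM in jejunal node, all below the 513, 1173 and 327 CPM of iliac node, a log2 fold change of -2.63 (SE 0.87, 95% interval -4.48 to -0.77, unadjusted p = 0.00871 in edgeR). Hba-a1 had 7.98, 48.9 and 9.30 CPM against 135, 201 and 39.2 CPM (log2 fold change -2.38, 95% interval -4.39 to -0.37), with jejunal 2 above iliac 3. Without jejunal 3 the log2 fold changes were -2.25 for Hba-a2 and -2.04 for Hba-a1. These paralogs are nearly identical, so the split of reads between them is uncertain. Hbb-bs, a beta-globin gene, overlapped between sites, with 17.9, 10.6 and 83.7 CPM in jejunal and 49.2, 21.3 and 40.9 CPM in iliac libraries. Summed over the 9 red cell genes in the table, the level was 99.7, 273 and 139 CPM in jejunal against 722, 1402 and 425 CPM in iliac node. The isotype library held 3.6 CPM of Hba-a2 against a jejunal mean of 143 CPM on plain totals. Hba-a2 averaged 193 ± 65.5 CPM in ileal node and 134 ± 18.0 CPM in inguinal node (SD, n = 3 each; edgeR adjusted p = 0.255).

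Genes of fat and other neighbouring tissue were also set side by side. Besides Lpl, the fat genes Acaca and Car3 had jejunal levels below every iliac library, making 3 of the 8 tested, where 4.21% of all genes did so. Car3, a carbonic anhydrase abundant in adipocytes and muscle, had 19.9, 20.5 and 23.2 CPM in jejunal and 65.6, 56.3 and 36 CPM in iliac node (log2 fold change -1.31, 95% interval -2.97 to 0.36). Acaca, which starts fatty acid synthesis, had 99.7, 56.8 and 112 CPM against 156, 119 and 123 CPM. Fabp4, a fatty acid carrier, overlapped, with 142, 1240 and 79.0 CPM against 135, 450 and 219 CPM. Of 16 fat cell genes 8 were tested, 3 with a positive and 5 with a negative fold change (median -0.49). Without jejunal 3 the median was -0.77, with 3 of 9 positive, and without jejunal 2 it was -0.95, with 0 of 8 positive. The list summed to 1388, 2296 and 442 CPM in jejunal and 1900, 3158 and 2378 CPM in iliac libraries. Muscle, intestinal epithelium, pancreatic acinar, urogenital and mast cell lists had 0 members tested. The intestinal epithelium list held 4, 40 and 9 counts in jejunal and 1, 6 and 14 counts in iliac libraries. Of the monocyte and neutrophil genes only S100a4, a calcium-binding protein, was tested, with 47.9, 96.2 and 4.65 CPM against 8.21, 120 and 42.5 CPM. The sex-linked list had 1 member tested, Uty, with 349, 60.5 and 437 CPM in jejunal and 644, 304 and 479 CPM in iliac libraries. Below the filter, Xist had 1, 57 and 0 counts in jejunal against 0, 14 and 7 in iliac libraries, and 133 CPM on plain totals in the isotype library. Kdm5d had 3, 9 and 13 counts against 3, 5 and 3, and Eif2s3y 10, 14 and 0 against 0, 2 and 0. The sex of the mice was not inferred from these values.

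Ribosomal protein genes differed more between libraries than between sites. Rplp1, a subunit of the ribosomal stalk, had 2511, 2525 and 121 CPM in jejunal 1, 2 and 3 and 406, 3521 and 1038 CPM in iliac 1, 2 and 3. Over the list of 30 the sum was 8942, 12231 and 944 CPM in jejunal and 2860, 11186 and 4062 CPM in iliac node, and it was higher the lower a library's share of ribosomal features. Of 28 members tested 23 had a positive fold change, with a median of 0.43 and of 0.85 without jejunal 3, but the median was -0.29 without jejunal 2 and -0.40 with the ribosomal share as a covariate. The nuclear RNA Malat1 had 53096, 73777 and 32382 CPM in jejunal node, all below the 82269, 82290 and 135646 CPM of iliac node. On plain totals the isotype library held 266075 CPM, against a jejunal mean of 65109 CPM. Malat1 was 1 of 3 nuclear noncoding RNAs tested, all with a negative fold change (median -0.41). That median was -1.14 without jejunal 3 and 0.07 without jejunal 2. The 3 features of ribosomal sequence had a median of -1.50 and overlapped between sites. Their median was -1.55 without jejunal 3, -0.92 without jejunal 2 and -2.14 without jejunal 1. In the fit without jejunal 1, 2 of the 3 lay below every iliac library, where 8.06% of all genes did.

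Outside the lists, the genes of smallest unadjusted p were of mixed kind. Ier3ip1, a protein of the endoplasmic reticulum membrane, had 51.8, 41.0 and 55.8 CPM in jejunal node, all above the 8.21, 18.3 and 8.18 CPM of iliac node (log2 fold change 2.04, SE 0.83). Ciz1, a zinc finger protein of the nuclear matrix, had 21.9, 20.2 and 83.7 CPM against 0, 10.7 and 6.54 CPM (log2 fold change 2.59, SE 1.04), also without overlap. Ttn, the giant elastic protein of striated muscle, had 170, 49.9 and 228 CPM against 28.7, 51.7 and 9.81 CPM (log2 fold change 2.28, SE 0.88). Cep85, a centrosomal protein, had 124, 90.2 and 69.7 CPM in jejunal and 1243, 50.2 and 219 CPM in iliac libraries. Its log2 fold change of -2.40 was -0.59 without iliac 1. Ttn and Cep85 overlapped between sites.

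**Figure D4:**
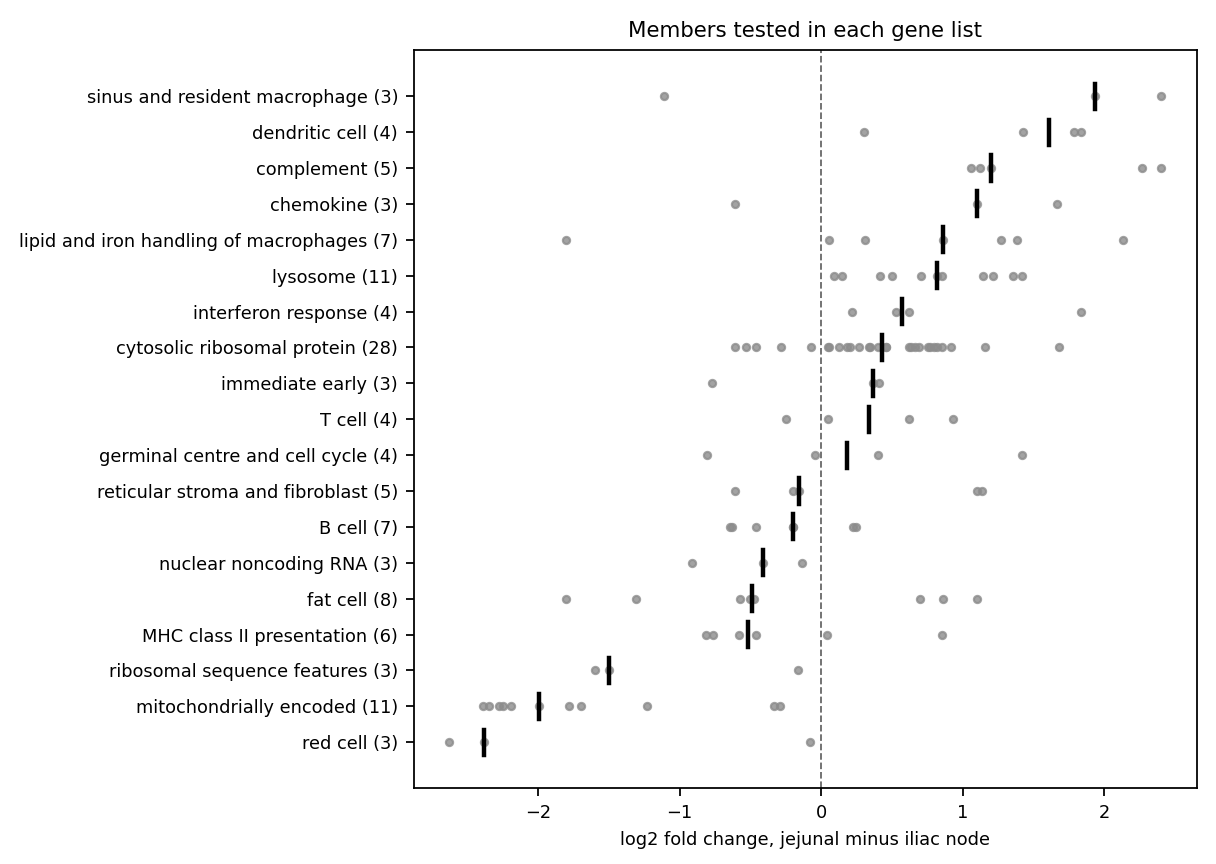
Each grey point is the log2 fold change, jejunal minus iliac node, of a gene tested, for every gene list with 3 or more members tested (number in brackets), and each black bar is the list's median. The dashed line marks the median of all 2517 genes, 0.0018. Complement and lysosome members all lie to its right and mitochondrially encoded members all to its left, and 0 genes passed the threshold.

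The ileal and inguinal libraries give the same genes at greater depth. Of the 20 genes with an unadjusted p under 0.05 and a higher jejunal level, 17 (85%) had a higher mean in ileal than in inguinal node, and 10 of them passed the threshold there. Of the 15 with a lower jejunal level, 14 could be tested in the deeper pair, 9 (64.3%) were lower in ileal node, and 2 passed. Over all 2508 genes tested in both pairs 1516 (60.4%) had the same sign, 535 of them past the threshold in ileal against inguinal node, and 132 passed it with the opposite sign. C1qa averaged 1611 ± 157 CPM in ileal node and 340 ± 117 CPM in inguinal node (SD, n = 3 each; edgeR adjusted p = 0.00117). C4b had similar levels in that pair, at 264 ± 48.3 CPM in ileal and 211 ± 27.3 CPM in inguinal node (SD, n = 3 each; edgeR adjusted p = 0.448). Psap averaged 6796 ± 525 CPM in ileal and 1876 ± 180 CPM in inguinal node (SD, n = 3 each; edgeR adjusted p = 0.00178). Lpl averaged 312 ± 37.9 CPM in ileal and 563 ± 339 CPM in inguinal node (SD, n = 3 each; edgeR adjusted p = 0.137). The difference between the pairs was not tested, and each pair's levels are scaled within its own libraries.

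**Figure D5:**
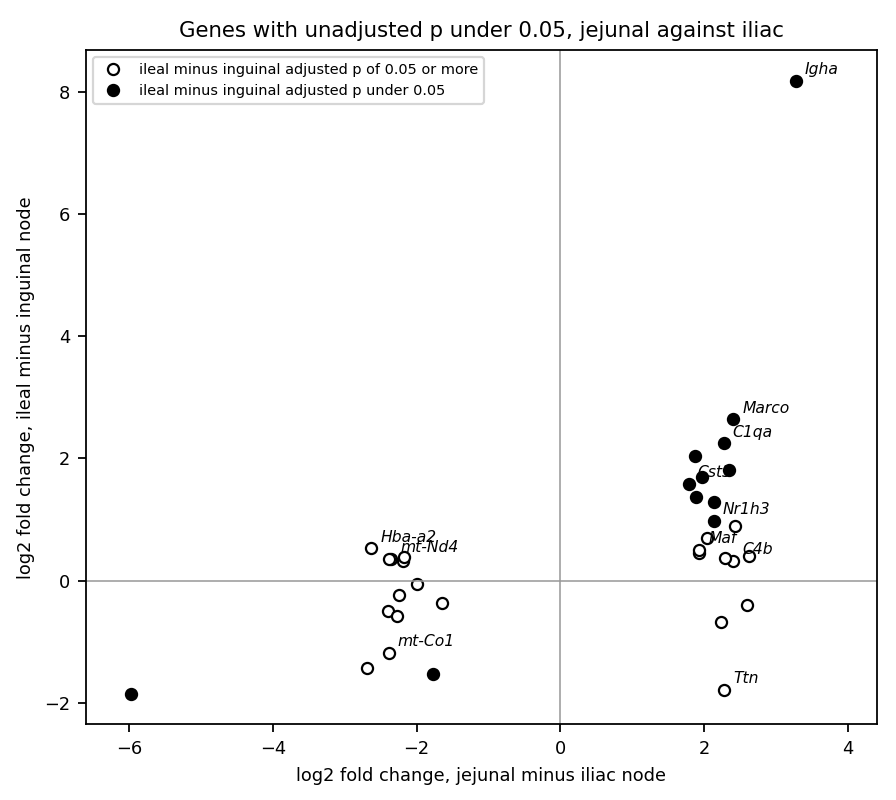
Each point is a gene with an unadjusted p under 0.05 between jejunal and iliac node, plotted by its log2 fold change there (x axis) and by its log2 fold change between ileal and inguinal node (y axis). Filled points passed an adjusted p of 0.05 in the ileal and inguinal libraries, as 10 of 20 genes on the right and 2 of 14 on the left did, and 0 genes passed it in the jejunal and iliac libraries.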

How the data were processed

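Per the labels' protocols, RNA from RiboTag pull-downs was purified with a PicoPure kit and made into libraries with a poly(A) kit. The submitters' processing notes name kallisto, limma and edgeR with no version or role, and the builds GRCm39 and mm10 together, so no coordinates are given. The authors deposited estimated counts per gene, not scaled between libraries as far as the values show, of which 32.8% were not whole. They were rounded here. The transcript-to-gene step and use of strand are not given in the sources used here, so paralogs, overlapping and antisense genes are uncertain.

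Tests used edgeR 4.0.16 in R 4.3.3 (quasi-likelihood, robust, filterByExpr with minimum count 10 and minimum total 15, TMM), fitted to 6 libraries per pair of sites, with Benjamini-Hochberg adjustment over all genes tested. Errors are SE of log2 fold changes, 95% intervals, or SD of CPM. The isotype library and the jejunal means set beside it use plain library totals. That library was deeper and held a lower share of ribosomal features than any of the 6. Plain CPM of other genes are therefore lowered less in it by those features. A group is said not to overlap another when its lowest CPM exceeds the other's highest. All 6 libraries differed beyond counting error, chi-square over its degrees of freedom being 21.2 to 59.4 between replicates.

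Members and 33 gene lists were chosen with earlier results of these data known. Named genes are the macrophage genes Siglec1, Rpl22, Marco, Adgre1, Csf1r and Cd68, the 6 of smallest p in each direction, and the 4 of highest mean CPM per list, not all of which are printed. Predicted genes, pseudogenes and variable segments were left out. Other genes were named after their values were seen. Alternatives were DESeq2 1.42.0, limma 3.58.1 (voom), other scalings and filters, the replicate number as a block, leaving out each library, a fit of 36 libraries, removal of 3 ribosomal features, and thinning. The code was tested on simulated data. A few genes and the results that need them are not reported here.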

Additional observations from a re-analysis of the deposited data

How the results depend on the processing

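In the jejunal against iliac comparison the count of genes past the threshold was 0 under 16 of 17 alternatives. With no filter on low counts it was 2 of 24738 genes. These were Lamc3, a laminin chain, with 118 counts in jejunal 3 and 0 in the other 5 libraries (adjusted p = 0.00256), and Lrch1, with 3, 3 and 0 counts in jejunal and 0, 272 and 0 in iliac libraries (adjusted p = 0.0449), so each rests on 1 library. Leaving out 1 library gave 0 to 0 calls. DESeq2 came closest among the other alternatives that kept all 6 libraries, with a smallest adjusted p of 0.0684, and without iliac 2 the smallest was 0.0673. The count at an unadjusted p under 0.05 was 35 in the reported fit, 94 with limma voom, 2104 of 16294 genes in the fit of 36 libraries, and 11 of 1454 after thinning. The ribosomal share as a covariate, chosen after seeing the data, gave 0 calls. Replicate numbers did not pair the libraries: deviations from the site means correlated at -0.27, 0.594 and 0.18 between equal numbers, and jejunal 1 correlated best with iliac 2. With the replicate block 0 genes passed, with 45 at an unadjusted p under 0.05.

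The 33 genes followed under the alternatives kept their direction under every alternative that gave a value (543 values), and 0 crossed the threshold. All 33 had large fold changes in the reported fit, the smallest being 1.06 on the log2 scale for C3, which makes a steady sign likely. Printed genes with smaller changes, such as Rpl22, Apoe and Ftl1, were not followed in this way. Marco ranged from 1.82 to 3.52, Igha from 1.11 to 4.24, and Cep85 from -2.91 to -0.59. Hbb-bs changed sign with DESeq2's size factors, among other alternatives. In the ileal against inguinal comparison DESeq2 called 3304 genes against 2162, the replicate block gave 2212, and leaving out 1 library gave 320 (without inguinal 2) to 5997 (without inguinal 3). Causes were not tested.

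Depth limits the jejunal and iliac comparison to abundant genes: 2517 of 56351 genes could be tested. In the reported fit, folds below 1.65 on the log2 scale did not reach an unadjusted p under 0.05.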

Other observations

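Among the 35 genes with an unadjusted p under 0.05, some fell in no list. Aif1, a calcium-binding protein of macrophages also known as IBA1, had 754, 994 and 9.30 CPM in jejunal 1, 2 and 3 and 57.4, 204 and 65.4 CPM in iliac 1, 2 and 3. Nr2f2, the nuclear receptor COUP-TFII of veins and lymphatics, had 69.8, 51.5 and 60.4 CPM in jejunal node, all above the 8.21, 30.4 and 8.18 CPM of iliac node, and passed the threshold in ileal against inguinal node (edgeR adjusted p = 0.0100). Acp2, a lysosomal acid phosphatase, had 195, 46.9 and 18.6 CPM in jejunal and 16.4, 19.8 and 22.9 CPM in iliac libraries. Txn1, the redox protein thioredoxin, had 106, 313 and 55.8 CPM against 61.5, 30.4 and 32.7 CPM. Bfar, a regulator of apoptosis, had 33.9, 37.3 and 60.4 CPM in jejunal node, all below the 107, 114 and 186 CPM of iliac node. The isotype library held 107 CPM of it on plain totals. The predicted gene Gm45339 had the smallest unadjusted p of all (0.00136 in edgeR), with 1.99, 0 and 0 CPM against 57.4, 18.3 and 26.2 CPM. None of these passed after adjustment, and all were chosen after their values were seen.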
